A study of Mus musculus with 25 samples.

Results

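Liver levels of the genes for mitochondrial ribosomal proteins are described here across diet, genotype and hepatocyte vector. Members were all genes whose mouse symbol begins with Mrpl or Mrps followed by a number, with pseudogenes left out. Of 41388 gene identifiers, 82 carried such a symbol, 5 of these were pseudogenes and 77 were members, 48 named Mrpl and 29 named Mrps. A total of 76 members exceeded 1 CPM (counts scaled to the total of the library) in at least 2 libraries and were tested among the 14065 genes that passed the same limit. Mrpl53 was the single member below the limit, with 0 counts in all 25 libraries, each read as an expected count up to 3. Of its 735 exon bases, 640 (87.1%) are shared with Gm42688 on the same strand, and the authors counted only reads that fit a single gene. The lowest member above the limit was Mrps6, which ran from 4.40 to 8.60 CPM after TMM normalization (library totals multiplied by a factor per library), the scale of CPM values below unless library size alone is named.

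The mitochondrial ribosome translates the few messenger RNAs of the mitochondrial genome, which encode membrane-embedded subunits of oxidative phosphorylation. Its ribosomal RNAs are made inside mitochondria, whereas its proteins are encoded in the nucleus and imported, so that both genomes must supply parts of the same particle. The small subunit binds and decodes the messenger RNA and the large subunit joins the amino acids. Part of the proteins have bacterial counterparts and the rest belong to mitochondria alone.

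Livers came from male C57B/6J mice aged 20 weeks, in a study of 12 weeks that asked what NAMPT, an enzyme of NAD synthesis, does to gene expression in the presence or absence of the NAD-dependent deacetylase SIRT1. Mice labelled WT were Sirt1 LoxP/LoxP littermates without Cre, and mice labelled LKO carried the same alleles with Cre driven by the Albumin promoter, which is active in hepatocytes. All mice received AAV8, either empty (EV) or, by the sample titles and the study's methods, carrying NAMPT under the thyroxine binding globulin promoter, which is active in hepatocytes. The treatment text of the labels names SIRT1 as the insert instead, so NAMPT here is the group named in the titles. Of the 25 libraries, 3 were chow WT EV. All others came from mice on Western diet (WD), with 6 each in WD WT EV and WD WT NAMPT and 5 each in WD LKO EV and WD LKO NAMPT. The labels give the libraries as separate samples and name no animals, so p-values measure the spread between these samples. No chow-fed NAMPT or LKO library was analysed here.

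Total counts ran from 20166175 to 32937326 per library. The lowest count of any tested member in any library was 104 (Mrpl47) and the median was 603. The whole-gene count of Sirt1 gave no check of the genotype labels, since WD WT EV had 8.84 ± 0.572 CPM (SD, n = 6) where WD LKO EV had 8.56 ± 1.33 CPM (SD, n = 5). Nampt was at 47.3 ± 6.45 CPM in WD WT EV beside 59.4 ± 10.6 CPM in WD WT NAMPT (SD, n = 6 each), with an adjusted p of 0.144 in the limma fit. In mice labelled LKO it was 56.0 ± 11.9 CPM with EV and 79.8 ± 28.3 CPM with NAMPT (SD, n = 5 each), with an adjusted p of 0.403. Sirt1 was at 8.57 ± 0.616 CPM in WD WT NAMPT (SD, n = 6) and 9.81 ± 1.36 CPM in WD LKO NAMPT (SD, n = 5), with adjusted p of 0.504 and 0.688 against EV by limma. Neither gene passed the test with the vector, so genotype and insert rest on the titles throughout. The 8 hepatocyte markers summed to between 45054 and 75742 CPM per library. In whole liver, fewer cells of a type and less RNA per cell cannot be told apart.

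Length-adjusted levels spread widely for genes whose products enter the particle side by side. On the RPKM scale (TMM-normalized CPM per 1000 exon bases), the median over 25 libraries ran from 1.79 to 119 across the 76 members, a 66.5-fold range around a median of 11.8, and 42 members lay within 2-fold of that median. The highest were Mrpl52 (119 RPKM), Mrpl42 (59.8 RPKM) and Mrps16 (46.6 RPKM). The lowest were Mrps25 (1.79 RPKM), Mrpl19 (1.96 RPKM) and Mrpl47 (1.98 RPKM). RPKM divides by exon bases, which were 412, 666 and 566 for the 3 highest and 6576, 5450 and 3420 for the 3 lowest. Without that division the range was narrower, with mean CPM by library size alone from 5.97 (Mrps6) to 58.4 (Mrps24). The part of annotated length in the RPKM range was not tested. Exon bases shared with other genes, whose reads the authors' counting can leave out, made up 53.7% of Mrps25, 36.0% of Mrpl19 and 17.7% of Mrpl47. They also made up 77.8% of Mrps34 and 37.8% of Mrps30, which were not among the lowest (6.98 and 6.93 RPKM), and the part of such overlaps in the levels was not tested. Median RPKM was 18.3 for 29 large-subunit proteins with bacterial counterparts, 12.2 for 20 mitochondria-specific large-subunit proteins, 13.4 for 16 small-subunit proteins with bacterial counterparts and 7.70 for 10 mitochondria-specific small-subunit proteins. The order of members hardly changed between groups, with a Spearman coefficient of the group medians of at least 0.981 across the 76 members, a description over genes that share libraries and lengths.

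**Figure D1:**
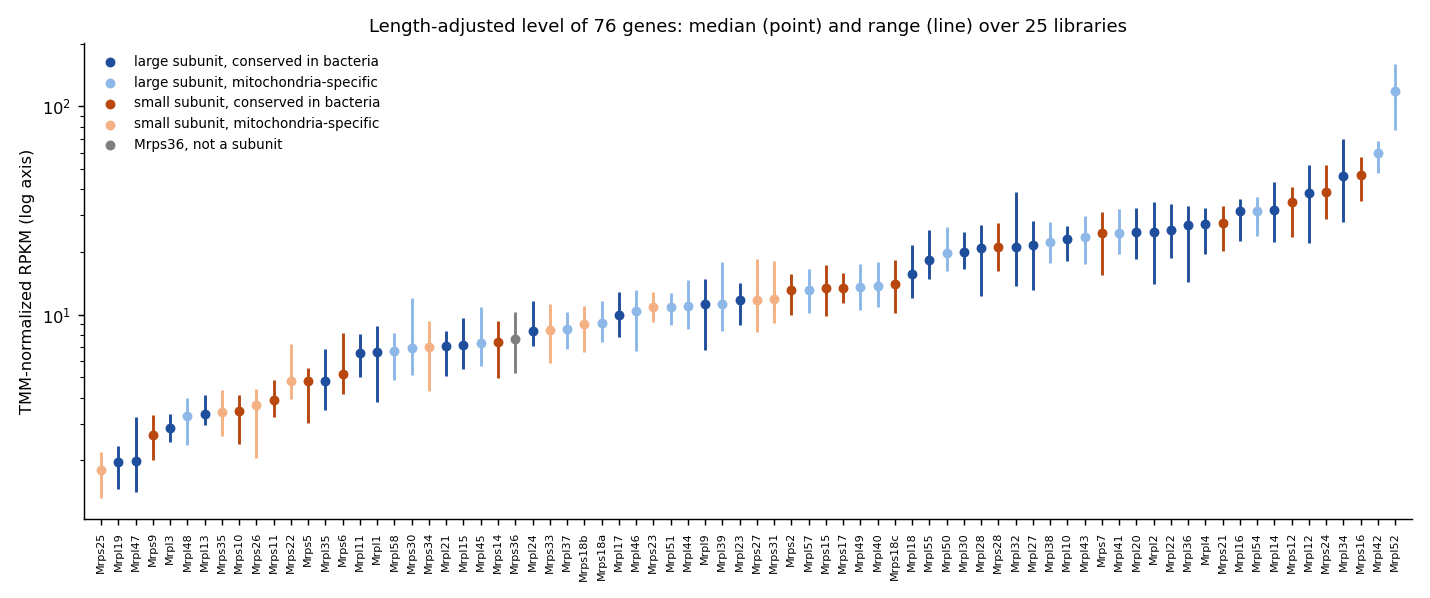
Length-adjusted level of each of the 76 members in mouse liver. The vertical log axis gives TMM-normalized RPKM, points are medians and lines the range over 25 libraries, and colour marks subunit and bacterial conservation. Mitochondria-specific members hold both ends, with Mrps25 at 1.79 and Mrpl52 at 119 RPKM.

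Within groups the members varied little. The SD of log2 CPM around the group means had a median of 0.172 over the members, against 0.247 over all genes and 0.2 over the 6777 genes in the same range of CPM. It was smallest for Mrps17 (0.104), Mrps23 (0.116) and Mrpl38 (0.117), and largest for Mrpl52 (0.281), Mrps30 (0.276) and Mrpl2 (0.271). Deviations from the group means tended to run together, with a median correlation of 0.541 between a member and the median of the others over 25 libraries that share depth and scaling (0.487 with library size alone). Mrps5 (0.874), Mrpl57 (0.836) and Mrpl22 (0.834) followed the others most closely. Mrpl50 (-0.273), Mrpl19 (-0.0179) and Mrps30 (0.0394) did so least.

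The genes are scattered over 17 chromosomes, and 23 of 77 (29.9%) start within 1000 bases of a divergent coding gene, compared with 11.5% of all coding genes kept. The 23 partners were Apba3, Cyb5rl, Eme1, Eme2, Fau, Gga3, Helq, Hira, Ighmbp2, Klc4, Lrrc46, Mitd1, Ncapd2, Ndufs6, Pnpla7, Ppp1r10, Psma2, Ptcd2, Sars2, Ska3, Wdfy1, Zfp189 and Zfp661. Their products range from the mitochondrial seryl-tRNA synthetase (Sars2, beside Mrps12) and a complex I subunit (Ndufs6, beside Mrpl36) to a proteasome subunit (Psma2, beside Mrpl32) and a histone chaperone (Hira, beside Mrpl40). RefSeq promoter windows (GRCm38.p6, 250 bases before to 50 after a start) matched 68 members. An ETS motif, CCGGAAG on either strand, was present for 36.8% of them and for 19.3% of kept coding genes with a window. The YY1 motif AAGATGGC was present for 17.6% and 5.13%, the NRF1 motif, a palindrome, for 4.41% and 2.29%, and the SP1 motif GGGCGG for 50.0% and 66.8%. CCAAT, the NFY motif, was present for 38.2% and 42.9%. In all 27025 symbols with a window the shares were 9.93% for ETS, 3.19% for YY1, 1.07% for NRF1, 38.2% for SP1 and 41.1% for NFY. Among the 68, 32 had exactly 1 of the ETS, YY1 and NRF1 motifs, 4 had 2 of them and 32 had none. These letters describe a window and no binding was measured.

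Windows of 3 members that were called in a comparison and hold 2 of these motifs are printed 5′ to 3′ on the strand of the gene, with the ETS, YY1 and NRF1 matches in capitals. Mrps27 (chr13:99344536-99344835, plus strand) and Mrps18a (chr17:46110754-46111053, plus strand) hold an ETS match before the start and a YY1 match just after it. Mrpl32 (chr13:14612988-14613287, minus strand) holds a YY1 match near the upstream edge of the window and the NRF1 match between that and the start.
Mrps27: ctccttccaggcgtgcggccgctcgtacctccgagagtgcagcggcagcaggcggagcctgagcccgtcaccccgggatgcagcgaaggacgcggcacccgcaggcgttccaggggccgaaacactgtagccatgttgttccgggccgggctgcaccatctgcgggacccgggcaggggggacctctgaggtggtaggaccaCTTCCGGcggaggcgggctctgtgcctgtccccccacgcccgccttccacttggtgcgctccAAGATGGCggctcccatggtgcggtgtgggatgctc
Mrps18a: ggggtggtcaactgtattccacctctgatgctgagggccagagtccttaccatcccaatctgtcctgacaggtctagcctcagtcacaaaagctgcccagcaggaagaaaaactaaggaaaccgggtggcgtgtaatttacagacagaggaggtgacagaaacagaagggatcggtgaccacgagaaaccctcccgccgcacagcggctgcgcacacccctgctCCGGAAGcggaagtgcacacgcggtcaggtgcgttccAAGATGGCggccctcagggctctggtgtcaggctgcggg
Mrpl32: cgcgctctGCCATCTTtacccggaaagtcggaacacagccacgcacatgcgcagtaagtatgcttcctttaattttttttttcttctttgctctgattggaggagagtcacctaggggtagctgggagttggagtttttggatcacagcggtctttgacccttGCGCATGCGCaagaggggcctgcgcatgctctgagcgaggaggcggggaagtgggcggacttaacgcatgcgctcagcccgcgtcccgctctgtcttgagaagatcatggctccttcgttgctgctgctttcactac

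The first comparison addressed diet in WT EV mice. With Western diet, 7 members fell and 4 rose relative to chow, a share of 14.5% against 22% of all genes called (limma, adjusted p of 0.05 or less), 12.0% lower and 10.1% higher. At an unadjusted p under 0.05 there were 21 members, where 35.1% of all genes passed that limit. The median log2 fold change of the 76 members was -0.03, beside -0.0048 over all genes. The falls were led by Mrpl47, Mrps27, Mrps31 and Mrpl15, and the rises by Mrpl54, Mrpl16, Mrpl10 and Mrps18a. By class, 3 of 10 mitochondria-specific small-subunit proteins were called, 0 of 16 small-subunit proteins with bacterial counterparts (2 at an unadjusted p under 0.05), 5 of 29 large-subunit proteins with bacterial counterparts and 3 of 20 mitochondria-specific large-subunit proteins. Differences between the classes were not tested.

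Mrpl47, a large-subunit protein at the exit of the polypeptide tunnel, was at 11.1, 10.9 and 8.15 CPM on chow and ran from 5.07 to 7.47 CPM with a median of 6.87 CPM on Western diet. Every Western diet library was below every chow library, and the log2 fold change was -0.64 ± 0.11 (SE, adjusted p = 0.000316). Mrps27, a small-subunit protein of the pentatricopeptide repeat family that binds RNA, was at 32.0, 34.1 and 31.3 CPM on chow and from 19.7 to 25 CPM with a median of 21.3 CPM on Western diet. The groups did not overlap, and the log2 fold change was -0.59 ± 0.11 (SE, adjusted p = 0.000471). Of Mrps27 exon bases, 22.6% are shared with 6430562O15Rik on the other strand, and of Mrpl47 exon bases 17.7% with Actl6a and Ndufb5. Whether counting used strand is not stated, so reads from these stretches cannot be assigned to a strand. In GRCm38, Mrpl47 lies at chr3:32725397-32737147 (minus strand) and Mrps27 at chr13:99344786-99415561 (plus strand).

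Mrps31 (chr8:22411340-22429665, plus strand), specific to the mitochondrial small subunit, had 25.4, 25.3 and 24.1 CPM on chow and between 15.8 and 21.1 CPM with a median of 18.6 CPM on Western diet. All 3 chow libraries were above all 6 others, and the log2 fold change came to -0.46 ± 0.09 (SE, adjusted p = 0.00113). Mrpl15 (chr1:4773206-4785739, minus strand), a large-subunit protein with a bacterial counterpart, had 54.3, 54.9 and 50.8 CPM on chow and between 35.9 and 48.6 CPM with a median of 39.5 CPM on Western diet. These groups were separate as well, and the log2 fold change came to -0.38 ± 0.09 (SE, adjusted p = 0.00402). Mrps22, another mitochondria-specific small-subunit protein, had 29.0, 23.4 and 24.1 CPM on chow and between 17.5 and 22 CPM with a median of 19.3 CPM on Western diet, with no overlap and a log2 fold change of -0.37 (adjusted p = 0.0134). Mrpl46, at the central protuberance, and Mrpl24, at the tunnel exit, fell by 0.27 and 0.28 on the log2 scale (adjusted p = 0.0344 and 0.0433), with overlapping groups. On the other strand, Mrpl24 shares 26.3% of its exon bases with Rrnad1 and Mrpl46 12.4% with Mrps11.

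Among the rises, Mrpl16, a large-subunit protein with a bacterial counterpart, was at 31.1, 31.4 and 28.4 CPM on chow and between 31.8 and 39.8 CPM with a median of 37.2 CPM on Western diet. Its groups did not overlap and the log2 fold change was 0.25 (adjusted p = 0.0309). Mrpl10, at the base of the stalk that binds translation factors, Mrpl54 and Mrps18a rose with overlapping groups, with log2 fold changes of 0.24, 0.30 and 0.22 (adjusted p = 0.0291, 0.0296 and 0.0447). Of Mrpl10 exon bases, 14.1% are shared with Gm11574 on the other strand. Groups did not overlap for 8 of 76 members, while 16.1% of all genes showed no overlap. With library size alone as scaling, the 13 members called were all lower, where 2169 of 14065 genes were called lower and 1055 higher. With 2 surrogate variables 9 of 14 called were higher and 5 lower, where 1595 of 14065 genes were higher and 1706 lower. The members' median was then 0.04 with 47 of 76 above 0, so the balance of rises and falls depended on the setting.

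Calls in the diet comparison varied with the test and with the few chow libraries. The edgeR quasi-likelihood test called 3 of these 11 members, and the count was 2 or 1 without chow replicate 1 or 2, 7 without WD WT EV replicate 4 and between 8 and 12 without any other single library of the pair. Over all genes the quasi-likelihood test called 1322 of 14065, and limma called 968 and 834 without chow replicates 1 and 2. Mrps27 remained called under each of the 12 other settings and in each of the 9 fits without 1 library, while Mrpl47 and Mrpl15 each lost the call in 2 of those 9. Beside these changes, 2 of 8 macrophage markers were called higher and 2 of 8 hepatocyte markers lower on Western diet. Of 6 stellate cell markers Lrat was higher (0.54), and of 6 endothelial markers Lyve1 was higher (1.13) and Kdr lower (-0.20). In the same comparison 22% of all genes were called. Markers of a list did not all move together. Without a call, mean CPM was lower on Western diet for the macrophage marker Marco. It was higher for the hepatocyte markers Ttr, Hnf4a and Asgr1, also without a call. The part of all these markers in the members' changes was not tested.

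**Figure D2:**
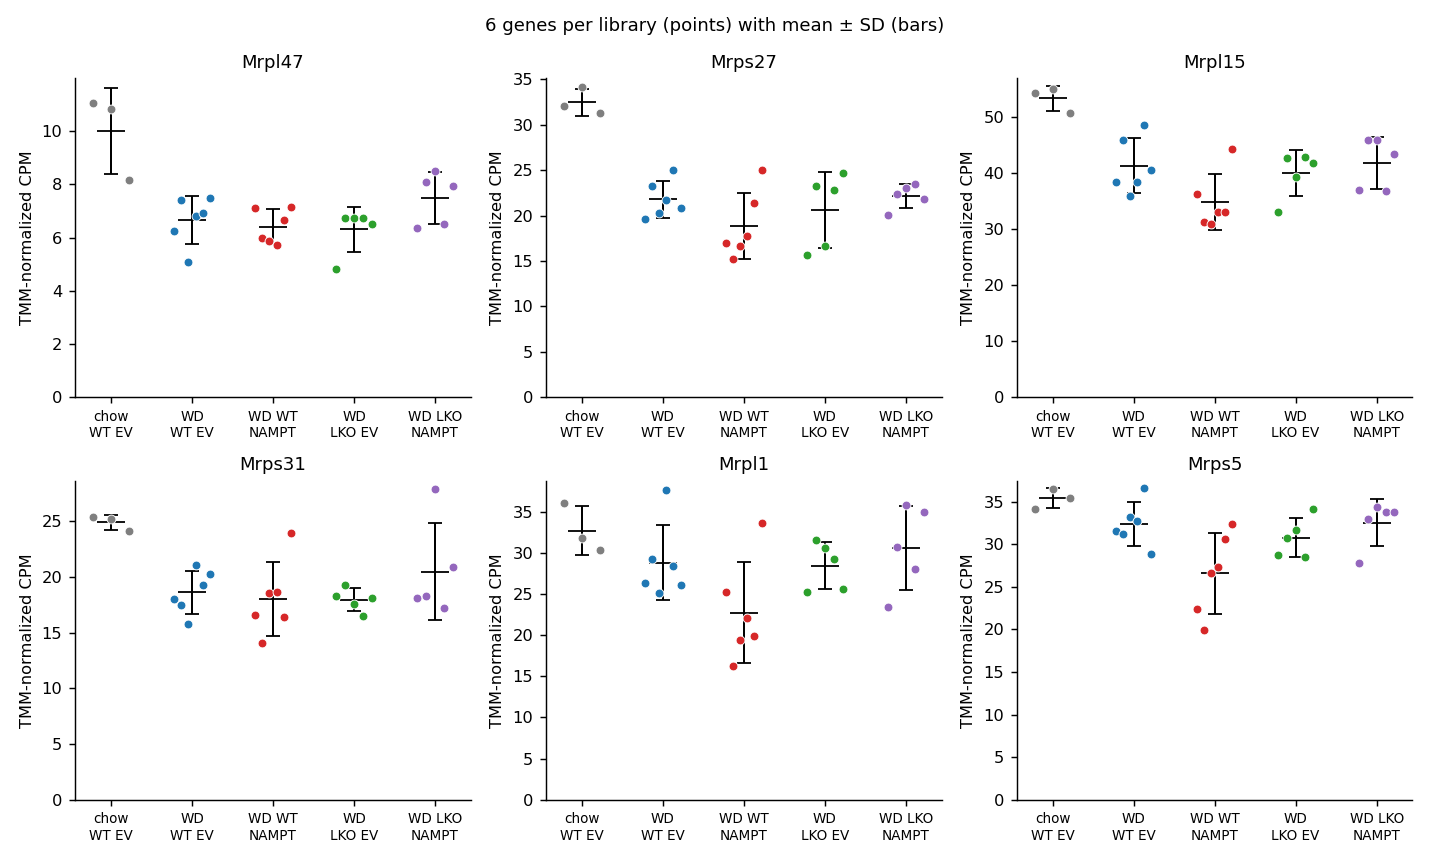
TMM-normalized CPM of Mrpl47, Mrps27, Mrpl15, Mrps31, Mrpl1 and Mrps5 in each library, by group. Points are libraries in the same horizontal order in every panel, bars are the mean ± SD, and axes start at 0. The 3 chow libraries lie above the 6 WD WT EV libraries for the first 4 genes, and most WD WT NAMPT libraries lie low for Mrpl1.

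The second comparison addressed NAMPT against EV in WT mice on Western diet, and so shares the WD WT EV libraries with the first. A total of 7 members fell and 0 rose, where 5.77% of all genes were called lower and 7.67% higher, and 13.4% in all. The 7 were Mrpl1, Mrpl15, Mrpl18, Mrps5, Mrps2, Mrpl42 and Mrpl44, or 9.21% of the members. With TMM scaling the members' median log2 fold change was -0.12 beside 0.0042 over all genes, and with library size alone it was 0.03 beside 0.16 over all genes, so the members lay below the median of all genes under both scalings although the sign turned. With 2 surrogate variables in the fit the members' median was 0.0099 beside 0.0019 over all genes, 40 of 76 members were above 0 and 0 were called, so the lower position of the members did not hold under that setting. Under TMM, 65 of 76 members had a log2 fold change below 0, compared with 49.3% of all genes. At an unadjusted p under 0.05 there were 23 members (30.3%, which is also the share over all genes). The median was -0.14 over 29 large-subunit proteins with bacterial counterparts, -0.12 over 20 mitochondria-specific ones, -0.12 over 16 small-subunit proteins with bacterial counterparts and -0.05 over 10 mitochondria-specific ones.

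Mrpl1 (chr5:96209493-96266727, plus strand), a large-subunit protein with a bacterial counterpart, ran from 25.2 to 37.7 CPM with a median of 27.4 CPM with EV and from 16.3 to 33.7 CPM with a median of 20.97 CPM with NAMPT. Of 6 NAMPT libraries, 4 lay below every EV library and replicate 6 lay above all but the highest, so the groups overlapped. The log2 fold change was -0.45 ± 0.11 (SE, adjusted p = 0.0155). Mrpl15 ran from 35.9 to 48.6 CPM with a median of 39.5 CPM with EV and from 31.0 to 44.3 CPM with a median of 33.0 CPM with NAMPT. Its groups overlapped too, and the log2 fold change came to -0.33 ± 0.09 (SE, adjusted p = 0.0176).

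Mrps5 (chr2:127587222-127606829, plus strand), a small-subunit protein with a bacterial counterpart, ran from 28.9 to 36.6 CPM with a median of 32.2 CPM with EV and from 20.0 to 32.4 CPM with a median of 27.02 CPM with NAMPT. In NAMPT mice 4 of 6 libraries were below every EV library, and the log2 fold change was -0.26 ± 0.08 (SE, adjusted p = 0.0288). Mrpl18, which has a bacterial counterpart, Mrps2, of the small subunit, Mrpl42, of the large subunit, and Mrpl44, a large-subunit protein related to ribonuclease III, fell by 0.34, 0.26, 0.23 and 0.29 on the log2 scale (adjusted p = 0.0229, 0.0415, 0.0436 and 0.0491). Groups overlapped for each of the 76 members, and 0.960% of all genes showed no overlap.

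Summed over the 76 members with TMM scaling, the level was 2024 ± 124 CPM with EV and 1861 ± 231 CPM with NAMPT (SD, n = 6 each). With library size alone, a scaling of the sums that was added after seeing the data, it was 1957 ± 124 CPM with EV and 1994 ± 131 CPM with NAMPT (SD, n = 6 each), so the direction turned. Both differences were smaller than the SD with NAMPT. On the TMM scale the 6 NAMPT libraries spread from 1578 to 2219 CPM, and the sum for the 8 macrophage and Kupffer cell markers spread from 332 to 1006 CPM in the same libraries. By library, a member sum of 1578, 1663, 1833, 1872, 2000 and 2219 CPM stood beside a marker sum of 1006, 932, 986, 678, 562 and 332 CPM. On this scale the library with the highest marker sum had the lowest member sum, and the library with the lowest marker sum the highest. That order depended on the scaling. With library size alone, in the same order of libraries, member sums were 1769, 2151, 2018, 1930, 2050 and 2045 CPM beside marker sums of 1128, 1205, 1085, 698.8, 575.7 and 305.9 CPM, and replicate 2 had the highest of both. With EV the marker sum ran from 345 to 499 CPM on the TMM scale. In this comparison 6 of the 8 markers were called higher, none of the 8 was at 0 in either group, and their part in the members' lower levels was not tested. The 8 hepatocyte markers summed to between 45054 and 63696 CPM with NAMPT and between 51507 and 67786 CPM with EV, and 1 of them, Asgr1, was called lower (-0.33). Of 6 stellate cell markers Col1a1 (1.70) and Pdgfrb (0.57) were higher, of 4 tested T cell, B cell and neutrophil markers S100a9 was higher (1.57), and of 6 endothelial markers Pecam1 was higher (0.36) and Clec4g lower (-0.40), while 0 of 4 cholangiocyte markers were called, with 0 at an unadjusted p under 0.05 (limma). The part of these markers was not tested either.

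The calls were sensitive to the test and to single libraries. The edgeR quasi-likelihood test and limma without quality weights called 0 members (9 of 76 at an unadjusted p under 0.05 in the former), and DESeq2 called 1. In the same order they called 428, 192 and 1194 of all 14065 genes. By the quasi-likelihood test 3295 of these had an unadjusted p under 0.05. Without 1 library the count of members called was 0 (WD WT EV replicate 2 or WD WT NAMPT replicate 3), 1 (WD WT EV replicate 6), 2 (WD WT NAMPT replicate 2), 3 (WD WT EV replicate 7 or WD WT NAMPT replicates 1 or 4), 5 (WD WT EV replicate 8), 7 (WD WT EV replicate 4), 8 (WD WT EV replicate 1), 16 (WD WT NAMPT replicate 5) or 17 (WD WT NAMPT replicate 6). The calls over all genes moved in the same fits. They were 291 without WD WT EV replicate 2 and 132 without WD WT NAMPT replicate 3. Without WD WT NAMPT replicates 5 and 6 they were 2802 and 2844.

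**Figure D3:**
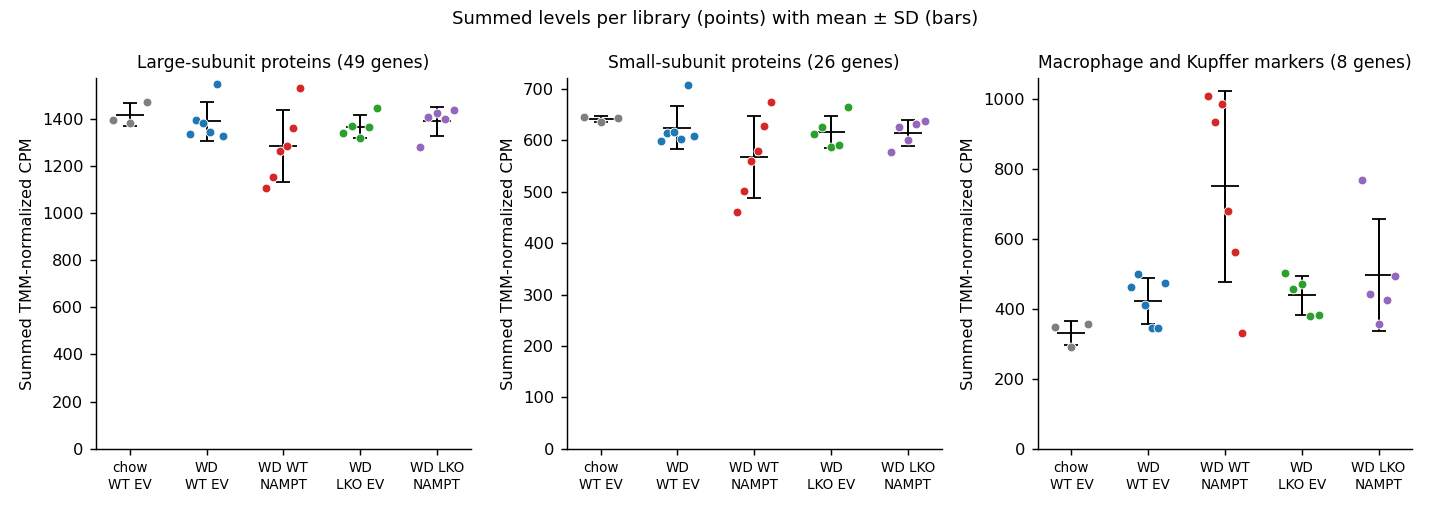
Summed TMM-normalized CPM in each library for 49 large-subunit members, 26 small-subunit members and 8 macrophage and Kupffer cell markers. Points are libraries in the same horizontal order in each panel and bars are the mean ± SD. In WD WT NAMPT the member sums and the marker sums both spread widely, with the marker sum from 332 to 1006 CPM. With library size alone, which is not plotted, the member sums of all 76 ran from 1769 to 2151 CPM in that group.

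The third comparison addressed NAMPT against EV in mice labelled LKO. The limma fit called 0 of 76 members, and it called 0.00711% of all genes. The members' median log2 fold change was 0.05 beside 0.02 over all genes, 51 of 76 were above 0 and 25 below, where 46.3% of all genes were below, and 5 had an unadjusted p under 0.05, where 9.63% of all genes did. With 2 surrogate variables the members' median was 0.09 beside 0.0071 over all genes, with 64 of 76 above 0. There 14 members had an unadjusted p under 0.05, where 1520 of 14065 genes did. Without 1 library the members' median ran from 0.0194 to 0.0741. Groups overlapped for every one of the 76 members, and 1.15% of all genes showed no overlap. The quasi-likelihood test, the edgeR exact test and DESeq2 also called 0. The member sum was 1994 ± 77.8 CPM with EV and 2014 ± 83.9 CPM with NAMPT (SD, n = 5 each). The smallest unadjusted p values belonged to Mrpl45, a tunnel-exit protein that anchors the ribosome to the inner membrane, Mrpl32 and Mrps30. Mrpl45 was at 19.4, 17.6, 20.4, 18.7 and 19.4 CPM with EV and 17.6, 23.5, 28.3, 22.2 and 24.3 CPM with NAMPT. All but 1 NAMPT library lay above the EV libraries, and the log2 fold change of 0.27 ± 0.10 did not pass the test (SE, adjusted p = 0.389 by limma). Mrpl32 and Mrps30 had log2 fold changes of 0.27 and 0.37 (adjusted p = 0.406 and 0.434).

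The difference between both NAMPT effects was tested as an interaction, the effect in LKO minus the effect in WT. No member passed, where 0.00711% of all genes did, and the smallest adjusted p among members was 0.0775 (Mrpl45, difference of 0.51 ± 0.14, SE). Mrpl1 and Mrpl15 followed, with differences of 0.54 ± 0.16 and 0.41 ± 0.13 on the log2 scale (SE, adjusted p = 0.0891 and 0.0907 by limma). The median difference was 0.18 beside -0.01 over all genes with TMM scaling, and 0.03 beside -0.15 with library size alone, and 66 of 76 members were above 0 under TMM. At an unadjusted p under 0.05 there were 16 members, a share close to the 21.2% of all genes. The quasi-likelihood test and DESeq2 called 0 as well, with 8 of 76 at an unadjusted p under 0.05 in the former. In the same order they called 0 and 19 of all 14065 genes, with 1545 at that limit in the former. Leaving out WD WT NAMPT replicate 5 gave 1 called member, and leaving out WD WT NAMPT replicate 6 or WD LKO NAMPT replicate 1 gave 5. These fits called 366, 636 and 679 of all genes.

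The fourth comparison set the NAMPT mice labelled LKO against the WT NAMPT mice, and so shares its reference libraries with the second. A total of 5 members were higher and 0 lower, where 4.18% of all genes were called higher, 3.78% lower and 7.96% in all. All 76 members had overlapping groups, where 1.39% of all genes did not overlap. Mrpl1 was at 23.4, 30.7, 35.8, 28.01 and 35.0 CPM in LKO NAMPT, above the median of 20.97 CPM in WT NAMPT in each library, and the log2 fold change was 0.54 ± 0.12 (SE, adjusted p = 0.0176 by limma). Mrpl32, a large-subunit protein that is cut by a mitochondrial protease before assembly, was at 15.8, 20.0, 29.7, 16.1 and 20.3 CPM in LKO NAMPT and ran from 10.5 to 23.2 CPM with a median of 14.4 CPM in WT NAMPT. Every LKO NAMPT library was above the WT NAMPT median although the ranges overlapped, and the log2 fold change was 0.45 ± 0.11 (SE, adjusted p = 0.0227 by limma). Mrpl45, Mrpl15 and Mrps5 had log2 fold changes of 0.41, 0.36 and 0.29 (adjusted p = 0.0228, 0.0262 and 0.0336).

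The members' median in this comparison was 0.14 beside -0.0055 over all genes with TMM, and 0.02 beside -0.12 with library size alone, with 65 of 76 members above 0 under TMM. In the same libraries 3 of 8 macrophage markers were called lower in LKO NAMPT and 8 of 8 had a log2 fold change below 0. The hepatocyte marker Tat (-0.74), the stellate cell marker Pdgfrb (-0.61) and the cholangiocyte marker Sox9 (-1.44) were lower as well, as 1 of 8, 1 of 6 and 1 of 4 markers. The 8 hepatocyte markers summed to 57548.5 ± 5361 CPM in LKO NAMPT (SD, n = 5) and 53387.9 ± 6827 CPM in WT NAMPT (SD, n = 6). Mean CPM was higher in LKO NAMPT for Alb, Ttr and Asgr1, and lower for Apoa1, Serpina1c, Cps1, Tat and Hnf4a. The part of all these markers in the members' higher levels was not tested. Both edgeR tests (quasi-likelihood and exact), DESeq2 and limma without quality weights each called 0 members, with 10 at an unadjusted p under 0.05 by quasi-likelihood. In the same order they called 45, 177, 294 and 38 of all 14065 genes, with 2720 at that limit by quasi-likelihood. Without WD WT NAMPT replicate 3, or WD LKO NAMPT replicate 2 or 5, the count of members called was 0. It was 1 without WD WT NAMPT replicate 2 or WD LKO NAMPT replicate 3, 2 without WD WT NAMPT replicate 4, 4 without WD WT NAMPT replicate 1, 7 without WD LKO NAMPT replicate 4, 9 without WD WT NAMPT replicate 5, 13 without WD LKO NAMPT replicate 1 and 17 without WD WT NAMPT replicate 6. The calls over all genes moved in the same fits. They were 0 and 2 without WD LKO NAMPT replicates 2 and 5, and 78 without WD WT NAMPT replicate 3. Without WD WT NAMPT replicates 5 and 6 they were 1955 and 2290, and 2266 without WD LKO NAMPT replicate 1.

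The last pair set LKO EV against WT EV on Western diet. The limma fit called 0 of 76 members and 0.00711% of all genes, and 1 member, Mrpl55, had an unadjusted p under 0.05, where 6.33% of all genes did. No member had separate groups, which 0.590% of all genes had. Mrpl55, a large-subunit protein, was at 17.6 ± 1.49 CPM (SD, n = 5) in LKO EV, where WT EV had 19.5 ± 1.82 CPM (SD, n = 6), with a log2 fold change of -0.20 (adjusted p = 0.761). Mrps2 and Mrps18b followed with log2 fold changes of -0.15 each (adjusted p = 0.842 and 0.871). The members ran from -0.20 to 0.10 on the log2 scale with a median of -0.03, beside 0.0014 over all genes. The members' median was 0.0023 with library size alone, with 41 of 76 above 0, against 28 of 76 with TMM, so the sign turned with the scaling. The quasi-likelihood test, the edgeR exact test and DESeq2 called 0 as well, with 0 members at an unadjusted p under 0.05 in the first. In the same order they called 0, 10 and 11 of all 14065 genes, with 497 at that limit in the first.

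**Figure D4:**
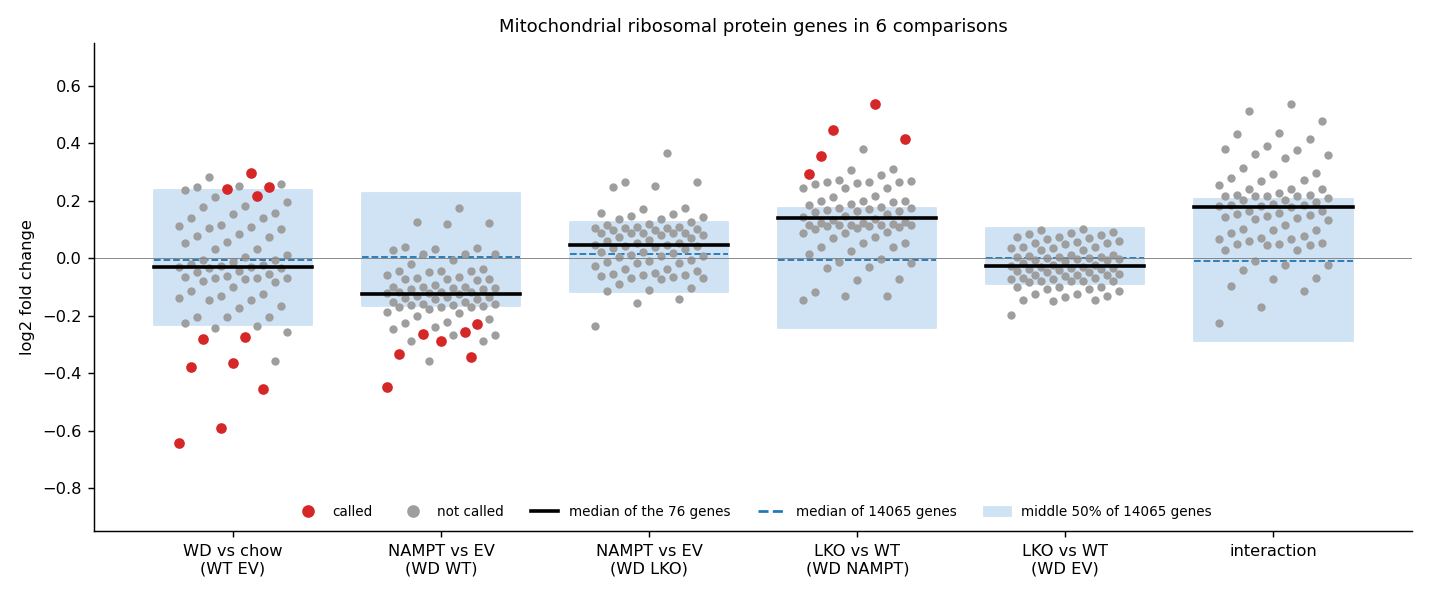
Log2 fold changes of the 76 members in 6 comparisons from the limma fit with TMM scaling. Each point is a member (red, called), black lines are the members' medians, dashed lines the medians and shaded boxes the middle 50% of 14065 genes. The members' medians are -0.12 for NAMPT in WT and 0.14 for LKO against WT with NAMPT, and with library size alone they are 0.03 and 0.02 while the medians of all genes move to 0.16 and -0.12.

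Across the 5 groups at once, the moderated F test called 31 of 76 members (40.8%) and 48.0% of all genes, and 35 members passed an unadjusted p of 0.05, as 57.1% of all genes did. The quasi-likelihood test called 3 members, and 2459 of 14065 genes. Mrps27, Mrpl15 and Mrpl47 had the smallest p. The balance between subunits stayed near constant, with a ratio of summed large-subunit to summed small-subunit CPM between 2.16 and 2.40 in the 25 libraries.

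Members with particular roles were chosen by name. Mrps12, the counterpart of the bacterial protein at the decoding centre, reached 33.7 ± 2.05 CPM in chow WT EV and group means of 34.2 to 37.3 CPM in the others, with no call. Mrpl12 and Mrpl11 of the translation-factor stalk gave no call in any comparison. Mrpl12 was the more variable of them, from 44.8 to 80.5 CPM within WD WT EV alone. Mrpl58, which can release stalled ribosomes, ran between group means of 21.5 and 23.1 CPM. Of the 3 relatives of bacterial S18, Mrps18a, which sits in the large subunit, rose with Western diet. The small-subunit relatives Mrps18b and Mrps18c were not called in any comparison. Mrps18c was at 16.7 to 17.7 CPM on chow and 14.3 to 16.1 CPM in WD WT EV, without overlap, and missed the test (log2 fold change of -0.21, adjusted p = 0.0984 by limma). On the RPKM scale Mrps18c was highest of these at 14.01, beside 9.17 for Mrps18a and 9.03 for Mrps18b.

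Mrps28, a small-subunit protein, was at 14.5 ± 0.507 CPM on chow and between 16.1 and 17.01 CPM in the other group means, with no call. Mrps30, which sits in the large subunit despite its symbol, had its highest group mean in WD LKO NAMPT, at 13.95 ± 3.60 CPM (SD, n = 5), beside 10.5 ± 1.66 CPM in WD LKO EV (SD, n = 5). Those groups overlapped. Mrps36 is now known as a subunit of the 2-oxoglutarate dehydrogenase complex rather than a ribosomal protein. Its level was 10.4 ± 1.17 CPM in WD WT EV, beside 9.03 ± 2.16 CPM in WD WT NAMPT (SD, n = 6 each), with a log2 fold change of -0.36 that missed the test (adjusted p = 0.0702 by limma). Mrps30 and Mrps36 were called in the F test (adjusted p = 0.0334 and 0.0455 by limma).

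Other parts of mitochondrial translation were described from lists chosen by function. On Western diet, where 12.0% of all genes were called lower and 10.1% higher (22% in all), 3 of 26 assembly factors were called by limma (0 by the quasi-likelihood test, 2 at an unadjusted p under 0.05), all lower (Mtg2, Ngrn and Eral1, with log2 fold changes of -0.32, -0.45 and -0.28), and 3 of 14 translation factors, with Mtif2 and Mtrf1l lower (-0.40 and -0.53) and Mtif3 higher (0.28). Ptcd3, a ribosomal protein without an Mrp symbol, was lower by a log2 fold change of -0.42 as 1 of 5 such genes. Of 17 mitochondrial aminoacyl-tRNA synthetases, Nars2 was lower (-0.68) and Iars2 higher (0.28). Of 9 mitochondrial chaperones and proteases, Hspd1 and Hspa9 were lower (-0.25 and -0.24). From other lists, Tefm (-0.41), a factor of mitochondrial transcription elongation, was lower on a list of 8. Nrf1 (-0.48), a transcription factor for mitochondrial genes, was lower on a list of 9. In the cytosolic ribosome 42 of 79 genes were lower with a median of -0.27 (16 lower by the quasi-likelihood test), and 6 of 76 nuclear-encoded subunits of oxidative phosphorylation were called, 4 higher and 2 lower.

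With NAMPT in WT mice 5.77% of all genes were called lower and 13.4% in either direction. Of 76 nuclear-encoded oxidative phosphorylation subunits 24 were lower, with a median of -0.23 beside 0.0042 over all genes. Under library size alone the median was -0.08 beside 0.16 over all genes, and 3 were lower, where 270 of 14065 genes were. The quasi-likelihood test called 0 of the 76, with 31 at an unadjusted p under 0.05. Over all genes it called 428 of 14065, with 3295 at that limit. Of 13 mitochondrially encoded mRNAs, mt-Cytb and mt-Co1 were lower, and the list median was -0.50 with TMM and -0.35 with library size alone. By the quasi-likelihood test 0 of the 13 were called, with 0 at an unadjusted p under 0.05 and a median of -0.17. Gfm1, the mitochondrial elongation factor G, was the single translation factor called of 14, with a log2 fold change of -0.34. Of 8 genes listed for mitochondrial DNA transcription and maintenance, the transcription factor Tfb2m was lower (-0.40), and of 17 synthetases Nars2 was (-0.43). Of 9 mitochondrial chaperones and proteases, Clpx, the unfoldase of a protease, and the chaperonin gene Hspd1 were lower (-0.82 and -0.21). Of 9 regulators of mitochondrial biogenesis, Myc was higher (1.26). Limma called 0 of 26 assembly factors, with 4 at an unadjusted p under 0.05, and the quasi-likelihood test 0, with 1. Cytosolic ribosomal proteins gave 0 of 79 calls with limma, 4 at an unadjusted p under 0.05 and a median of 0.04. With library size alone 3 were higher, where 2004 of 14065 genes were. With NAMPT in mice labelled LKO limma called 0 genes of the lists shown in the plot of pathway lists, and the medians were 0.10 for translation factors, -0.03 for oxidative phosphorylation subunits and -0.04 for mitochondrially encoded mRNAs.

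LKO NAMPT was also set against WT NAMPT, whose libraries enter the comparison of NAMPT with EV in WT too. Of 14 genes on the list of translation factors 5 were higher, where 4.18% of all genes were (7.96% called in all). They were Gfm1 (0.38), Slirp (0.34), Mtrf1 (0.43), Gfm2 (0.28) and Lrpprc (0.30), and the list is wider than translation factors in the strict sense. In the same comparison 11 of 76 oxidative phosphorylation subunits and 4 of 13 mitochondrially encoded mRNAs (mt-Cytb, mt-Nd6, mt-Co1 and mt-Nd4) were higher with TMM scaling. With library size alone 7 and 1 were higher, where 204 of 14065 genes were. The quasi-likelihood test called 0 in each of these 3 lists, with 6 of 14, 21 of 76 and 5 of 13 at an unadjusted p under 0.05. Over all genes it called 45 of 14065, with 2720 at that limit. Mitochondrial messenger RNA made up between 4.06% and 8.54% of counts in the WT NAMPT libraries and 5.41%, 6.31%, 7.22%, 8.02% and 12.3% in the LKO NAMPT libraries. All but the last of these, replicate 3, lay within the WT NAMPT range.

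**Figure D5:**
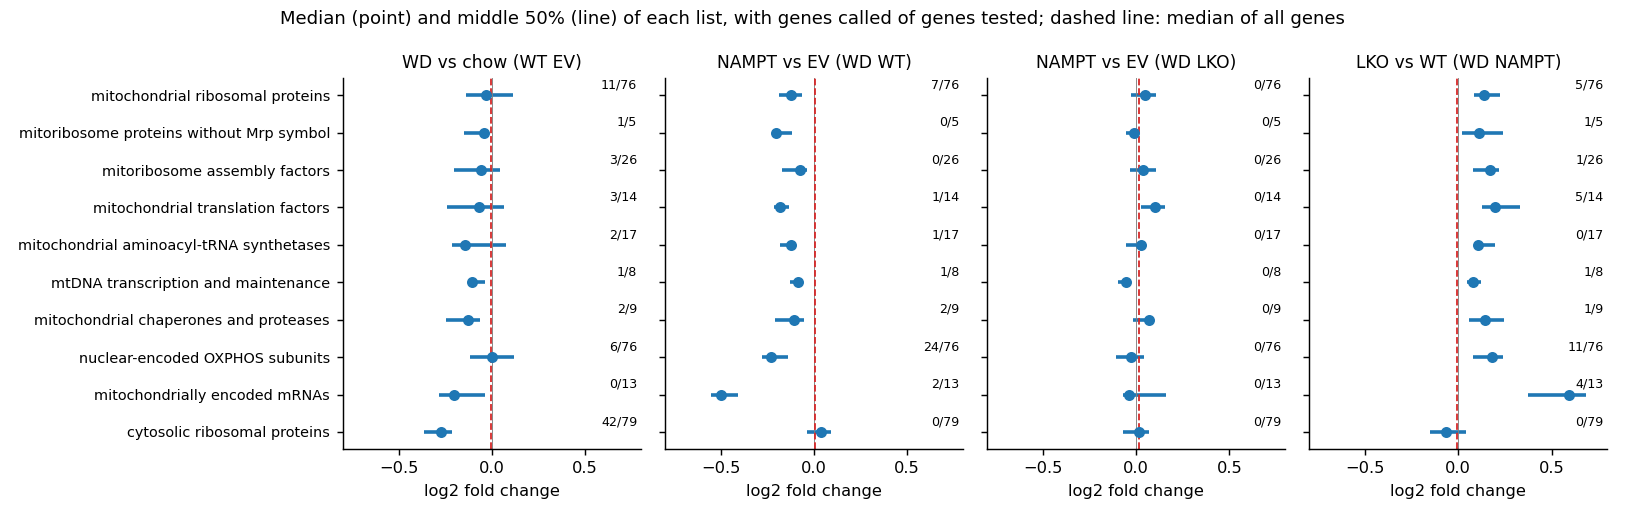
Medians (points) and middle 50% (lines) of log2 fold changes for 10 gene lists in 4 comparisons, on the TMM scale. Fractions give genes called of genes tested and dashed lines the median of 14065 genes. On Western diet the cytosolic ribosomal list has its median at -0.27 and the mitochondrial ribosomal list at -0.03.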

How the data were processed

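RNA from mouse liver was sequenced after poly-A selection. Per the labels and the study's methods, the authors aligned reads to GRCm38 and used featureCounts to count, for each gene, reads that aligned once and belonged to no other gene. The submitters' processing notes name STAR 2.5.1a and featureCounts 1.4.6-p5. The deposited count files also give CPM and RPKM, which equalled the counts divided by library total and exon length to a relative deviation of 5.9e-14. Whether counting used strand is not given in the sources used here.

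Genes over 1 CPM in 2 or more of 25 libraries were kept after removal of 4 rRNA genes. Counts were scaled by TMM (edgeR 4.0.16) and fitted with limma 3.58.1 (voom with sample quality weights) as 1 mean per title group in R 4.3.3. Benjamini-Hochberg adjustment covered 14065 genes, and genes with an adjusted p of 0.05 or less were called. Levels are TMM-normalized CPM, or RPKM between genes, and fold changes come from the weighted fit. Total counts were 20166175 or more per library, and libraries of a group differed by more than counting error. The treatment text of the labels names SIRT1 as the vector insert where the titles name NAMPT, and the titles were followed. Alternatives were the edgeR quasi-likelihood and exact tests, DESeq2 1.42.0, other scaling, filters, weights and samples, a replicate block and surrogate variables (sva 3.50.0). No 2 libraries of the same group agreed within sampling noise (smallest chi-square per degree of freedom 15.1). The statistics were tested on simulated counts with equal dispersion and no differences in library quality or scaling. That test therefore cannot show how quality weights or TMM factors act in these libraries. Named genes were the called members of each comparison by adjusted p up to 10, otherwise the 3 with the smallest p, the 3 highest and lowest in RPKM, and members with a stated role. Members and lists were chosen with earlier results of these data known.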

Additional observations from a re-analysis of the deposited data

Results flagged for a closer look

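In 180 groups of 5 or 6 libraries, taken over 45 genes and sums on the TMM scale, 15 single libraries (8.33%) lay far from the rest of their group by Dixon's criterion, and chance alone gives about 1 in 20 groups. Several of these values come from the same library and are not separate events. With library size alone as scaling, a check added after seeing the data, 2 of the 15 still passed the criterion and 13 did not. The 2 were the ratio of large to small subunit in WD LKO NAMPT replicate 3 and Mrpl1 in WD WT EV replicate 6.

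WD WT EV replicate 7 had the highest member sum of its group, 2269 CPM where the next was 2021 CPM, with 1550 CPM for the large subunit and 708.4 CPM for the small subunit. WD LKO NAMPT replicate 1 had the lowest of its group on the TMM scale, 1869 CPM where the next was 2036 CPM, with 1280 CPM for the large subunit and 27.77 CPM for Mrps5. With library size alone it had 1988 CPM, inside its group's range of 1805 to 2072 CPM, and replicate 3 was lowest. Replicate 1 also had a TMM-scaled macrophage marker sum of 769 CPM, where the others of its group had between 358 and 493 CPM, and its part was not tested. WD LKO NAMPT replicate 3, which had the highest share of mitochondrial mRNA (12.3%), had a ratio of large to small subunit of 2.375.

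Among single genes, WD WT NAMPT replicate 6, with the lowest macrophage marker sum of its group, stood high for Mrpl44 (23.99 CPM) and Mrps22 (25.33 CPM). WD WT NAMPT replicate 1, with the highest marker sum, stood low for Mrpl52 (32.34 CPM) and Mrps25 (8.694 CPM). Mrps25 was also high in WD LKO NAMPT replicate 4 (12.97 CPM). Mrpl1 was high in WD WT EV replicate 6 (37.69 CPM), Mrps18b was high in WD WT EV replicate 8 (22.97 CPM), and Mrpl47 was low in WD LKO EV replicate 1 (4.822 CPM).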

How the results depend on the processing

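For NAMPT against EV in WT, the count of 7 members became 0 with the quasi-likelihood test, the exact test, limma without quality weights, no filter on low counts or 2 surrogate variables, 1 with DESeq2 or library size alone, 4 with upper-quartile factors and 2 with only the groups compared. It ran from 0 to 17 without 1 library, where the count over all genes ran from 132 to 2844. The median of -0.12 became 0.0297 with library size alone and 0.0099 with surrogate variables. For LKO NAMPT against WT NAMPT, the count of 5 became 0 with both edgeR tests, DESeq2, no quality weights, no filter, only the groups compared or surrogate variables, and 2 with library size alone. It ran from 0 to 17 without 1 library, where the count over all genes ran from 0 to 2290. The median of 0.14 became 0.0249 with library size alone, 0.0814 with upper-quartile factors and 0.0778 with 2 surrogate variables. For diet, the count of 11 became 3 with both edgeR tests or no quality weights and 4 with DESeq2 or no filter, and ran from 1 to 12 without 1 library, and its median of -0.03 became 0.04 with surrogate variables, -0.07 with library size alone and -0.08 with the replicate block. The interaction ran from 0 to 5 without 1 library. Its median of 0.18 became 0.0265 with library size alone, 0.115 with upper-quartile factors or the replicate block and 0.0906 with surrogate variables. For the F test, the count of 31 became 3 with the quasi-likelihood test, 5 with DESeq2, 4 without quality weights, 18 with library size alone, 20 with upper-quartile factors, 7 with no filter and 11 with surrogate variables. It ran from 5 to 34 without 1 library, with 6 or 5 without chow replicate 1 or 2, and 18, 17 or 19 without WD WT NAMPT replicate 2, 3 or 4. Counts for LKO NAMPT against LKO EV and LKO EV against WT EV were 0 under the 12 settings and in each fit without 1 library. Calls over all genes also changed with the setting. For NAMPT against EV in WT they numbered 66 with 2 surrogate variables and 2274 with library size alone. The causes were not tested.

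Titles number the replicates, but same-numbered libraries correlated between -0.32 and 0.37 in their deviations, so the numbers were not taken to pair samples. With the replicate number as a block the counts were 1 for NAMPT in WT, 2 for LKO NAMPT against WT NAMPT, 12 for diet, 11 for the F test and 0 for the other comparisons.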
